A study of Mus musculus with 23 samples.

Results

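Myeloma cells taken from the spleen were compared with cells of the same donor line taken from the bone marrow, in the 3 donor lines that were sampled from both organs. The comparison holds 10 of the 23 RNA-seq libraries of the series, 5 from spleen and 5 from bone marrow. Libraries were chosen by their labelled line and tissue alone. VQ-D1 gave 2 spleen and 2 bone marrow libraries, t-VK12653 gave 2 and 2, and VQ-D4 gave 1 and 1.

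VQ-D1 and VQ-D4 have the genotype Vκ*MYC; NrasLSL Q61R/+; IgG1-Cre. In these lines a MYC transgene under kappa light chain control is combined with an oncogenic Nras allele that is switched on by a Cre expressed from the IgG1 locus, which is active in germinal centre B cells. The line t-VK12653 carries Vκ*MYC alone, so all 10 libraries share the MYC transgene. The cells were sorted as CD138+B220-, the surface phenotype of plasma cells, from mice that had received transplanted donor cells. Each line derives from 1 donor mouse, so the p-values rest on variation among its libraries and say nothing of variation among donors. The labels do not state which libraries share a recipient mouse. A number in the names of the deposited tables, taken here as that of the recipient, puts each spleen library beside 1 bone marrow library of its line. These 5 combinations are called pairs below, and the number was used as a block in an alternative fit.

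Multiple myeloma is a cancer of plasma cells, which normally settle in bone marrow niches. There, stromal cells that make the chemokine CXCL12 retain them through its receptor CXCR4, and neighbouring cells supply survival signals. The mouse spleen is a secondary lymphoid organ that also carries out blood formation. In bone marrow, granulocytes and their precursors are the most abundant haematopoietic cells, so a sorted marrow fraction can carry their RNA.

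Total counts ran from 3192400 to 7027050 per spleen library and from 3287991 to 10047314 per bone marrow library. The ribosomal precursor Rn45s took 18.6% to 27.3% of counts in spleen and 19.4% to 23.3% in bone marrow. No replicates of a group agreed within sampling noise, with a chi-square per degree of freedom of 5.39 to 9.49. Levels are given in CPM, counts scaled by each library's size after TMM normalization, and fold changes as spleen over bone marrow on the log2 scale with their standard error (SE). Unless another fit is named, calls and p-values of edgeR are those of the main fit, which has terms for line and tissue and a low-count filter.

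The sorted cells had a plasma cell profile in both organs. On the length-scaled TPM scale, Xbp1, a transcription factor of the secretory programme, was listed at 1320 to 2280 in spleen and 1260 to 2640 in bone marrow. Sdc1, which encodes CD138, lay at 276 to 751 TPM in spleen and 374 to 849 TPM in bone marrow. Pax5, a transcription factor of B cells that plasma cells switch off, was listed at 0 TPM in every spleen library and at or below 0.498 TPM in every bone marrow library. Of the 21 tested plasma cell identity genes, 11 had a fold change above 0 and 10 below, with a median log2 value of 0.02. None of the 21 was called by edgeR or DESeq2, and 1 had an unadjusted edgeR p under 0.05, beside 5.31% of all tested genes.

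Neither gene of the engineered genotype passed the test between the organs. Myc was at 593 and 523 CPM in VQ-D1 spleen against 673 and 507 in VQ-D1 bone marrow. In VQ-D4, Myc was at 1640 CPM in spleen against 1220 in bone marrow, and in t-VK12653 at 6670 and 6160 CPM in spleen against 6080 and 6260 in bone marrow. The log2 fold change of Myc was 0.08 ± 0.11 (SE, edgeR adjusted p = 0.975). Nras, which encodes the RAS GTPase of the engineered allele, was at 35.5 to 47.3 CPM in spleen and 35.2 to 50.5 CPM in bone marrow. Its log2 fold change was 0.04 ± 0.12 (edgeR adjusted p = 0.994), and the direction of neither gene was stable when libraries were left out.

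Few genes separated the organs once the donor line was accounted for. In edgeR's quasi-likelihood test with line as a blocking term, 0 of 12097 tested genes (0%) had an adjusted p under 0.05. The smallest adjusted p was 0.108, for Cxcl12. At an unadjusted p under 0.05 there were 642 genes (5.31%), of which 340 (2.81%) were lower and 302 (2.5%) higher in spleen. DESeq2 with the same terms called 33 genes (0.273%), 32 of them lower in spleen. With the recipient number as a block, edgeR called 5 genes (0.0413%), all lower in spleen. The line terms of the same main fit called 8012 genes (66.2%).

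The intervals show how large a difference these libraries could still contain. Among the 8455 genes with at least 10 CPM on average, the 95% interval of the spleen effect lay within 1 log2 unit of 0 for 8167 genes (96.6%). It lay wholly beyond that limit for 8 genes. The median absolute log2 fold change between organs was 0.0941 in these genes, while that between VQ-D1 and t-VK12653 was 0.442. Across the 1000 most variable genes, libraries of one line correlated at 0.882 to 0.958 (Pearson r across genes, which are not independent), and libraries of other lines at -0.0645 to 0.219. These genes were picked by their variance over the same 10 libraries, which favours genes that differ between lines. The low values between lines, and the nearest library being of the same line, are partly set by that choice. All 10 libraries were nearest to a library of their own line. For 6 of them it was the library with the same recipient number, and for 4 it was one of the same organ.

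**Figure D1:**
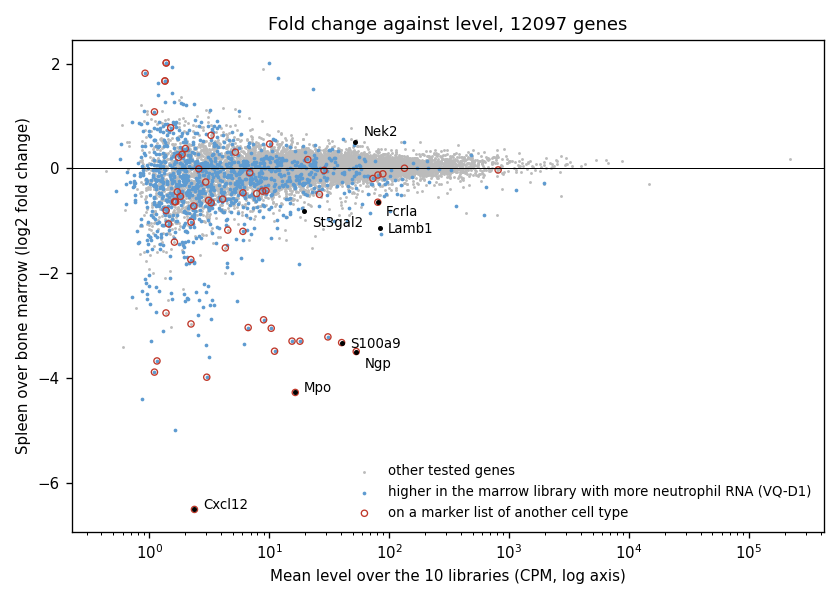
Each point is one of 12097 tested genes, placed by its mean level over the 10 libraries (CPM, log axis) and its spleen over bone marrow log2 fold change. Blue points are genes whose level differed between the VQ-D1 marrow libraries in step with the neutrophil sum, red rings are genes on a marker list of another cell type, and black dots are named genes. The large negative values are mostly low in level, blue or ringed, and the points narrow towards 0 as the level rises.

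RNA of granulocytes was the clearest difference between the organs. The summed level of 21 neutrophil genes was 27.1 and 173 CPM in VQ-D1 spleen, 7.62 CPM in VQ-D4 spleen and 9.46 and 7.1 CPM in t-VK12653 spleen. In bone marrow it was 1140 and 376 CPM in VQ-D1, 82.4 CPM in VQ-D4 and 144 and 93.5 CPM in t-VK12653. Spleen was lower than bone marrow in all 5 pairs, by 2.17-fold to 42.1-fold, and the organs did not overlap within any line. Averaged over lines, the log2 difference was -3.51. The control bone marrow plasma cells of the series, sorted by the same markers, had sums of 3080 to 8500 CPM. In bulk RNA of this kind, fewer cells of a type and less RNA per cell cannot be told apart.

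**Figure D2:**
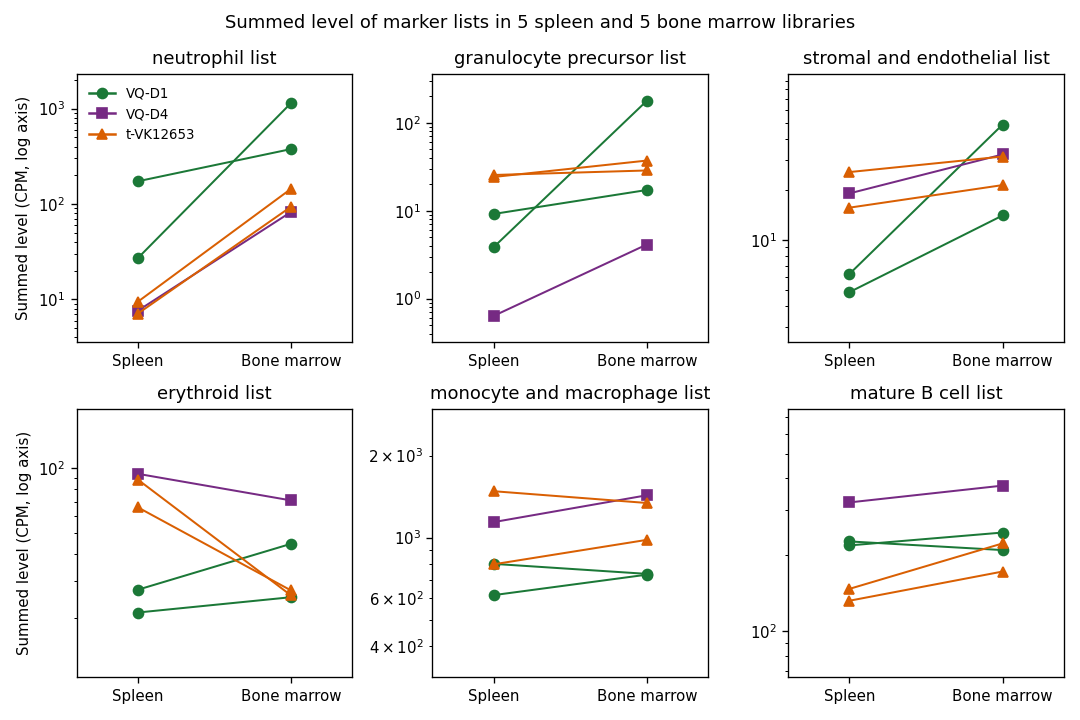
Summed level (CPM, log axis) of 6 marker lists in each library, spleen on the left and bone marrow on the right, with a line joining libraries of the same recipient number. The neutrophil, granulocyte precursor and stromal sums are lower in spleen in 5 of 5 pairs, and the erythroid sum is higher in spleen in both t-VK12653 pairs and the VQ-D4 pair.

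The single neutrophil genes followed the sum. S100a9, a subunit of the calprotectin complex of neutrophils, was at 5.13 and 33.9 CPM in VQ-D1 spleen against 231 and 69.1 in VQ-D1 bone marrow. In VQ-D4, S100a9 was at 0.317 CPM in spleen against 13.1 in bone marrow. In t-VK12653 it was at 1.27 and 0.526 CPM in spleen against 30.4 and 18.2 in bone marrow. Its log2 fold change was -3.33 ± 0.74 (SE), with an adjusted p of 0.688 in edgeR and 0.000159 in DESeq2. Ngp, a granule protein of neutrophils, was at 4.33, 43.1, 0, 0.546 and 2.37 CPM in the spleen libraries (VQ-D1, VQ-D1, VQ-D4, t-VK12653, t-VK12653). Ngp was at 309, 86.7, 21.7, 38.4 and 27 CPM in bone marrow in the same order. The spread between the pairs was wide: the second pair of VQ-D1 differed by -1.01 in log2 CPM of Ngp, the first by -6.13 and the second pair of t-VK12653 by -3.44. VQ-D4 spleen and the first t-VK12653 spleen library held 0 and 3 reads of Ngp, against 179 and 186 in bone marrow.

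Of the 21 neutrophil symbols found, 15 passed the filter on low counts, and they passed mainly through the bone marrow side, where they are high. All 15 had a fold change below 0, with a median log2 value of -3.22 beside 0.00206 over all tested genes. DESeq2 called 8 of the 15 lower in spleen, beside 0.273% of all tested genes called in either direction. The main edgeR fit called 0 of the 15 and 0 of all 12097 tested genes. All 15 were lower at an unadjusted edgeR p under 0.05, beside 2.81% of all tested genes. Anxa1, an annexin abundant in neutrophils, was at 0 to 6.48 CPM in spleen and 4.24 to 66.8 CPM in bone marrow, with a log2 fold change of -3.49 ± 0.56 (DESeq2 adjusted p = 5.36e-08). Cd177, a neutrophil surface protein that is on none of the lists, was at 0 to 3.64 CPM in spleen and 1.95 to 33.7 CPM in bone marrow. Its log2 fold change was -3.35 ± 0.55 (DESeq2 adjusted p = 4.5e-05).

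The sum of 7 granulocyte precursor genes was also lower in all 5 pairs. It was 3.85 and 9.18 CPM in VQ-D1 spleen, 0.635 CPM in VQ-D4 spleen and 24.2 and 25.5 CPM in t-VK12653 spleen. In bone marrow it was 178 and 17.2 CPM in VQ-D1, 4.12 CPM in VQ-D4 and 37.2 and 28.7 CPM in t-VK12653. Mpo, the myeloperoxidase of immature granulocytes, was at 0.263 to 5.13 CPM in spleen and 0.727 to 129 CPM in bone marrow (log2 fold change -4.28 ± 1.19, DESeq2 adjusted p = 0.0196). Elane, the neutrophil elastase, had 12 reads over the 5 spleen libraries, 3 of which held none, and 133 reads over the 5 bone marrow libraries (DESeq2 adjusted p = 0.00501). The sum of this list differed by -5.53 and -0.91 in log2 units in the VQ-D1 pairs, by -2.7 in VQ-D4 and by -0.62 and -0.17 in the t-VK12653 pairs. In t-VK12653, Mpo had 2 and 1 reads in spleen against 78 and 5 in bone marrow, and Elane 0 and 0 against 18 and 3. Gfi1, a transcription factor of granulocyte precursors, was at 21.5 and 21.8 CPM in t-VK12653 spleen against 13.6 and 23.1 in t-VK12653 bone marrow.

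Cxcl12, the chemokine of marrow stromal cells, had 1 read over the 5 spleen libraries, in VQ-D1, and 129 reads over the 5 bone marrow libraries. By library, bone marrow held 72 and 34 reads in VQ-D1, 20 in VQ-D4 and 1 and 2 in t-VK12653. Pooled over libraries, the bone marrow to spleen ratio of Cxcl12 was 108, with an exact 95% counting interval of 19.1 to 4320. The gene had an adjusted p of 0.108 in the main edgeR fit, 0.00281 with the recipient block and 0.000153 in DESeq2. In the block without the first VQ-D1 recipient the adjusted p of Cxcl12 was 0.341. It passed the filter on low counts through the bone marrow libraries alone. Outside these 10 libraries, Cxcl12 was at 15.3 to 40 CPM in control bone marrow and 0.47 to 0.491 CPM in VQ-D5 bone marrow. It was at 0 to 1.03 CPM in VQ-D2 spleen, above the VQ-D5 bone marrow values in 1 library, and had no read in the lymph node libraries or the VQ-D4 liver library. The stromal and endothelial list that contains it summed to 4.86 to 25.5 CPM in spleen and 14 to 49.1 CPM in bone marrow and was lower in spleen in 5 of 5 pairs. Of its 19 symbols, 7 had no read in any spleen library and 4 had none in any bone marrow library. Whether the Cxcl12 reads came from stromal RNA in the sorted fraction was not tested.

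Erythroid genes had higher sums in spleen in 2 of the 3 lines. Their sum was 88.6 and 65.8 CPM in t-VK12653 spleen against 25.6 and 27 CPM in t-VK12653 bone marrow. In VQ-D4 it was 94.3 CPM in spleen against 70.9 in bone marrow, and in VQ-D1 27.2 and 21.3 CPM in spleen against 44.5 and 25.1 in bone marrow. Of the 20 erythroid symbols found, 10 passed the filter on low counts. The globin genes among them passed mainly through the spleen side, where they are high. All 10 had a fold change above 0, with a median log2 value of 1.37, beside 6106 of 12097 over all tested genes. None was called by edgeR or DESeq2, and edgeR gave 3 an unadjusted p under 0.05, beside 5.31% of all tested genes. The 10 include Hba-a1 with Hba-a2 and Hbb-b1 with Hbb-bs, near-identical globin genes that carry the same values in the deposited tables. Hba-a1 averaged 2.39 CPM in spleen and 0.379 CPM in bone marrow. The largest member of the sum was Sptb, the erythroid spectrin, at 42.9% of it.

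The sums of the other marker lists overlapped between the organs. The monocyte and macrophage sum was 615 to 1480 CPM in spleen and 731 to 1430 CPM in bone marrow. Ly6c2, which some plasma cells also express, made up 81.1% of it, so the sum says little of the other members. Of the 9 tested members, 4 had a fold change above 0 and 5 below. DESeq2 called 1 of the 9, Lyz2, beside 0.273% of all tested genes. For Lyz2 the organs did not overlap in any line (log2 fold change -3.05 ± 0.80, edgeR adjusted p = 0.772, DESeq2 0.0449). The T cell sum lay at 24.1 to 42.1 CPM in spleen and 31.4 to 39.5 CPM in bone marrow, and 80.2% of it was Cd247. Mature B cell genes summed to 132 to 322 CPM in spleen and 172 to 375 CPM in bone marrow, lower in spleen in 4 of 5 pairs. Platelet genes summed to 7.37 to 10.9 CPM in spleen and 7.82 to 15 CPM in bone marrow, lower in spleen in 5 of 5 pairs by 1.04-fold to 1.91-fold. For the eosinophil and mast cell list the recipients differed more than the organs: its sum in t-VK12653 was 55.3 and 358 CPM in spleen against 81 and 345 CPM in bone marrow of the same recipient numbers.

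The bone marrow libraries of VQ-D1 differed in their content of other RNA within 1 line and organ. Their neutrophil sums of 1140 and 376 CPM differ 3.04-fold. Other sums differed between them in the same direction: granulocyte precursor genes at 178 and 17.2 CPM, stromal and endothelial genes at 49.1 and 14 CPM, haematopoietic progenitor genes at 10.1 and 3.27 CPM, and immediate early and stress genes at 5310 and 2140 CPM. The difference is therefore not particular to granulocyte genes. A gene was said to move with the neutrophil sum where it differed between these libraries in the same direction and by at least 0.801 on the log2 scale, which is 0.5 times the log2 difference of the sum. Of all tested genes, 1128 (9.32%) did so, among them 11 of the 15 neutrophil genes and 8 of the 10 erythroid genes. Of the 33 genes called by DESeq2, 23 (69.7%) did so, and of the 61 genes with a log2 fold change below -2, 53 (86.9%) did so. Of the 3 genes with a log2 fold change above 2, all 3 did so, so a high share was not limited to genes lower in spleen. Low levels were common in these sets: 53 of the 61 genes below -2 averaged under 10 CPM, against 3642 of all 12097 tested genes. The first VQ-D1 marrow library is also 1 of the 5 bone marrow libraries in the fold change, so a high value there counts in both measures and these shares are descriptions. Between the t-VK12653 marrow libraries, whose neutrophil sums of 144 and 93.5 CPM differ by 0.628 on the log2 scale, the median log2 difference was 0.319 in the DESeq2 calls, 0.728 in the genes below -2 and -0.0187 in all tested genes. These libraries are part of the fold change as well. The organs were called separated in every line where the spleen and bone marrow values did not overlap in any of the 3 lines and lay in the same order in all. Among such genes of at least 10 CPM, 12 of 111 lower ones (10.8%) and 0 of 173 higher ones moved with it.

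**Figure D3:**
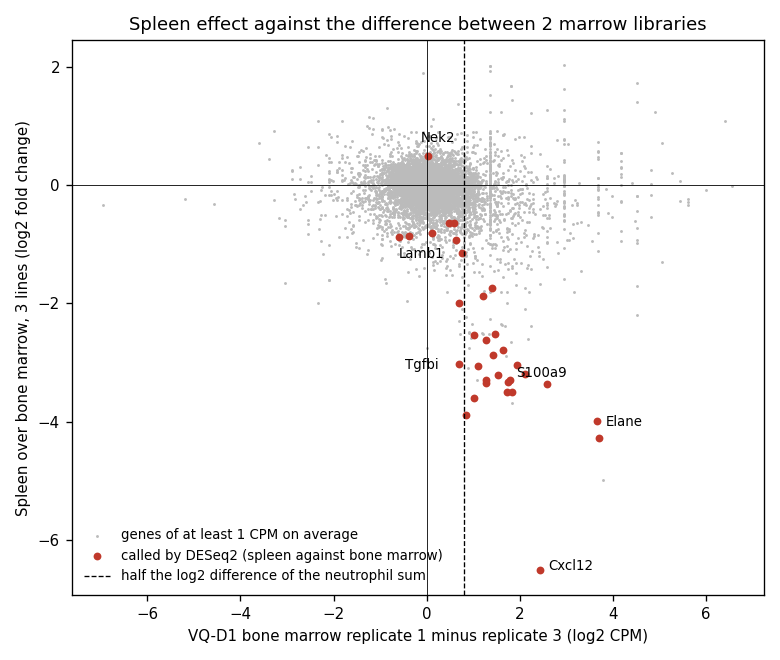
Each point is a gene of at least 1 CPM, placed by its difference between the VQ-D1 bone marrow libraries (replicate 1 minus replicate 3, log2 CPM) and its spleen over bone marrow log2 fold change over the 3 lines. Red points are the DESeq2 calls at that level. Most of them lie at the lower right, beyond the dashed line at 0.801, while Lamb1, Tgfbi and Nek2 lie left of it.

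The 23 DESeq2 calls that moved with the neutrophil sum include, besides listed markers, further genes of granulocytes. Ncf1, a subunit of the phagocyte NADPH oxidase, had a log2 fold change of -2.53 ± 0.53 (DESeq2 adjusted p = 0.00418). Pglyrp1, a peptidoglycan recognition protein of neutrophil granules, had -2.52 ± 0.51 (DESeq2 adjusted p = 0.00934). Igsf6, an immunoglobulin superfamily member of myeloid cells, was at 0 to 1.75 CPM in spleen and 3.27 to 11.2 CPM in bone marrow, with no overlap of the organs in any line (log2 fold change -2.88 ± 0.47, DESeq2 adjusted p = 0.000124).

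The other 10 DESeq2 calls did not reach the limit of 0.801 for moving with the neutrophil sum. They are Lamb1, St3gal2, Fcrla, P4ha2, Ptpn22, Trcg1, Itih5, Tgfbi and the RNA component Rmrp, lower in spleen, and Nek2, higher in spleen. In the direction of the sum, Lamb1 differed by 0.765, Itih5 by 0.691, Tgfbi by 0.69, Trcg1 by 0.631, Fcrla by 0.587 and Ptpn22 by 0.472. St3gal2 differed by 0.125, Nek2 by 0.0232, P4ha2 by -0.585 and Rmrp by -0.383. Whether RNA of other cells adds to these 10 genes was not tested. Since the main fit called nothing, these genes and those in the next paragraphs were chosen after their values were seen. For 6 of the 10, the organs were separated in every line. Over all tested genes the organs were separated in every line for 221 genes (1.83%) in the lower and 192 (1.59%) in the higher direction.

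Lamb1, a chain of the basement membrane protein laminin, lies on chromosome 12 from 31265146 to 31329644 (GRCm38.p6). It was at 91.5 and 53.4 CPM in VQ-D1 spleen against 181 and 106 in VQ-D1 bone marrow. In VQ-D4, Lamb1 was at 107 CPM in spleen against 297 in bone marrow, and in t-VK12653 no library of either organ held more than 2 reads. Spleen was therefore lower in both lines that express Lamb1, with a log2 fold change of -1.14 ± 0.25 (edgeR adjusted p = 0.413, with the recipient block 0.000916, DESeq2 0.00824). Control bone marrow held Lamb1 at 0.495 to 0.9 CPM, below every VQ-D1 and VQ-D4 library. In VQ-D5 the lymph node over bone marrow log2 fold change of Lamb1 was -0.82 ± 0.47 (edgeR adjusted p = 0.988).

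Fcrla, an Fc receptor-like protein of B lineage cells, lies on chromosome 1 from 170917594 to 170932216. It was at 46.5 and 47.1 CPM in VQ-D1 spleen against 82.3 and 54.8 in VQ-D1 bone marrow. In VQ-D4, Fcrla was at 129 CPM in spleen against 187 in bone marrow, and in t-VK12653 at 44.7 and 49.5 CPM in spleen against 73 and 94.1 in bone marrow. The organs did not overlap in any line. The log2 fold change of Fcrla was -0.65 ± 0.12 (edgeR adjusted p = 0.213, with the recipient block 0.0373, DESeq2 0.00501). In the block without single recipients, the adjusted p of Fcrla ran from 0.00317 to 0.16 and the call was lost in 3 of the 5 fits. Fcrla is on the mature B cell list, of whose 15 symbols 3 passed the filter on low counts. Cd79b, a chain of the B cell receptor complex that made up 59.4% of the list sum, averaged 136.6 CPM in spleen and 132.8 CPM in bone marrow. Bank1, a B cell scaffold protein, averaged 5.98 CPM in spleen and 9.78 CPM in bone marrow. Ms4a1, which encodes CD20, reached 0.337 TPM in spleen and 3.79 TPM in bone marrow.

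The recipient block also called St6gal1 and Rnase6, which the main fit and DESeq2 did not. St6gal1, the enzyme that adds alpha-2,6-linked sialic acid to glycoproteins, was at 38.8 and 11.3 CPM in VQ-D1 spleen against 74.7 and 18.2 in VQ-D1 bone marrow. In VQ-D4, St6gal1 was at 50.5 CPM in spleen against 116 in bone marrow, and t-VK12653 libraries held at most 2 reads each. Its log2 fold change was -0.96 ± 0.57 (edgeR adjusted p = 0.933, with the recipient block 0.0253). Rnase6, a secreted ribonuclease, was at 62.8 and 30.6 CPM in VQ-D1 spleen and 44.4 CPM in VQ-D4 spleen, against 124, 44.1 and 93.1 CPM in the bone marrow of the same pairs. In t-VK12653, Rnase6 was at 16.2 and 11.6 CPM in spleen against 21.5 and 15.6 in bone marrow (log2 fold change -0.75 ± 0.35, edgeR adjusted p = 0.933, with the recipient block 0.0463). Both genes were higher in the VQ-D1 marrow library with the larger neutrophil sum, St6gal1 by 2.03 and Rnase6 by 1.49 on the log2 scale. In VQ-D1 spleen the library of that recipient number was again the higher for both genes, and its neutrophil sum was the lower, at 27.1 against 173 CPM. A part of neutrophil RNA in either gene was not tested. Of the 5 blocked fits that each left out a recipient, the Rnase6 call was lost in 4, with adjusted p of 0.0675 to 0.277. The St6gal1 call was lost without the first VQ-D1 recipient (adjusted p = 0.195) and without the VQ-D4 recipient (0.135). With the neutrophil sum as a covariate neither was called, but that fit called no gene at all. The sum did not overlap between the organs within any line, so the fit cannot separate the organ from neutrophil RNA for St6gal1 or Rnase6.

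St3gal2, a sialyltransferase that adds alpha-2,3-linked sialic acid, was at 8.01 and 10.1 CPM in VQ-D1 spleen against 14.6 and 13.4 in VQ-D1 bone marrow. In VQ-D4 it was at 14.6 CPM in spleen against 34.2 in bone marrow, and in t-VK12653 at 18.2 and 19.2 CPM in spleen against 31 and 33.2 in bone marrow. The organs did not overlap in any line, and St3gal2 had a log2 fold change of -0.80 ± 0.14 (edgeR adjusted p = 0.178, DESeq2 0.00418). P4ha2, a prolyl 4-hydroxylase subunit of collagen synthesis, was at 21 to 32.7 CPM in spleen and 28.2 to 90.2 CPM in bone marrow. It was lower in spleen in all 5 pairs (log2 fold change -0.89 ± 0.20, DESeq2 adjusted p = 0.0205). Ptpn22, a tyrosine phosphatase that limits antigen receptor signalling in lymphocytes, was at 8.01 to 66.7 CPM in spleen and 13 to 116 CPM in bone marrow, and lower in spleen in all 5 pairs (log2 fold change -0.64 ± 0.14, DESeq2 adjusted p = 0.0485).

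Nek2, a centrosomal kinase of mitosis, was the only gene that DESeq2 called higher in spleen. It was at 85.7 and 65.2 CPM in VQ-D1 spleen against 58.4 and 57.5 in VQ-D1 bone marrow. In VQ-D4, Nek2 was at 47.3 CPM in spleen against 29.3 in bone marrow, and in t-VK12653 at 53.3 and 51.6 CPM in spleen against 33.7 and 39.1 in bone marrow. The organs did not overlap in any line. The log2 fold change of Nek2 was 0.50 ± 0.11 (edgeR adjusted p = 0.278, with the recipient block 0.131, DESeq2 0.0485).

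Among genes with the organs separated in every line and at least 10 CPM in spleen, the 12 with the highest fold changes were Sapcd2, Kif2c, Sdr39u1, Med9, Wasf1, Bora, Cdca2, Dhx34, Nek2, Rpusd4, Pomgnt1 and Ripk3. Of these, only Kif2c is on the mitosis list. Sapcd2 had the highest log2 fold change, 0.66 ± 0.20 (edgeR adjusted p = 0.772). Kif2c, a microtubule-depolymerising kinesin of the centromere, was at 15.5 to 30.9 CPM in spleen and 11.4 to 24.7 CPM in bone marrow (log2 fold change 0.56 ± 0.16, edgeR adjusted p = 0.680). Cdca2, which recruits a phosphatase to chromosomes at the end of mitosis, was at 17.1 to 62 CPM in spleen and 10.7 to 43.3 CPM in bone marrow (log2 fold change 0.52 ± 0.14, edgeR adjusted p = 0.595). Pomgnt1, a glycosyltransferase of dystroglycan, was at 51.3 to 70 CPM in spleen and 39.1 to 54.7 CPM in bone marrow (log2 fold change 0.42 ± 0.09, edgeR adjusted p = 0.278). Med9, a subunit of the Mediator complex, had a log2 fold change of 0.54 ± 0.13 (edgeR adjusted p = 0.361). None of Kif2c, Cdca2, Pomgnt1 and Med9 was called by edgeR, with or without the recipient block, or by DESeq2, and none moved with the neutrophil sum in VQ-D1 marrow. With the neutrophil sum as a covariate over all 10 libraries, the log2 fold change of Cdca2 was -0.163 and that of Kif2c 0.06. In the block with that covariate they were -0.0879 and -0.0623. The neutrophil sum did not overlap between the organs within any line, so these fits cannot separate the organ from neutrophil RNA.

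**Figure D4:**
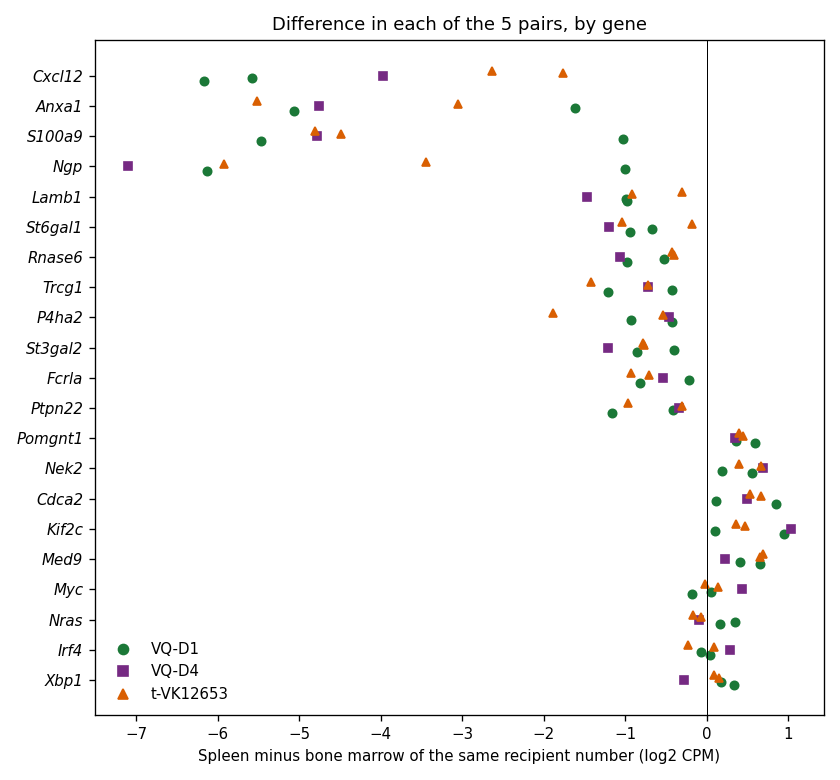
Difference between spleen and bone marrow of the same recipient number (log2 CPM) in each of the 5 pairs, for 21 genes, with marker shape and colour giving the line. Cxcl12, Anxa1, S100a9 and Ngp have the largest differences and vary widely between pairs, Fcrla, St3gal2, P4ha2 and Ptpn22 lie below 0 and Pomgnt1 to Med9 above 0 in every pair, and Myc, Nras, Irf4 and Xbp1 lie on both sides of 0. An offset of 0.5 counts was added, and it sets the values of Cxcl12, Anxa1, S100a9 and Ngp where a spleen library has 0 to 3 reads, and those of Lamb1 and St6gal1 in t-VK12653, with 0 to 2 reads per library. Lamb1 had no read in either organ of the second t-VK12653 pair.

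As the main fit called 0 of 12097 genes, it could call none in the 23 pathway lists of the tumour cell. DESeq2 called 1 of the 34 tested members of the hypoxia and glycolysis list, P4ha2 (adjusted p = 0.0205), beside 0.273% of all tested genes. Mitosis genes lay above 0 in 24 of 24 members with a median log2 fold change of 0.28, beside 6106 of 12097 above 0 and a median of 0.00206 over all tested genes. None was called by edgeR or DESeq2, and edgeR gave 7 an unadjusted p under 0.05, beside 5.31% of all tested genes. Their summed level was 5270 and 4400 CPM in VQ-D1 spleen against 3410 and 4600 in VQ-D1 bone marrow, and 3400 CPM in VQ-D4 spleen against 2150 in VQ-D4 bone marrow. In t-VK12653 it was 2600 and 3030 CPM in spleen against 2580 and 3210 in bone marrow. The sum was thus higher in spleen in 3 of 5 pairs, by 0.63, 0.66 and 0.01 on the log2 scale, and differed by -0.06 and -0.08 in the others. In VQ-D5, which was sampled from lymph node and bone marrow, the median log2 difference of the same genes was -0.04.

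Among the mitosis genes, Ccnf, the cyclin F of a ubiquitin ligase complex, had the highest log2 fold change, 0.66 ± 0.17 (edgeR adjusted p = 0.436). Cdc20, the activator of the anaphase-promoting complex, averaged 37.1 CPM in spleen and 26.6 CPM in bone marrow, with 0.49 ± 0.16 (edgeR adjusted p = 0.818). DNA replication genes lay above 0 in 23 of 25 members with a median of 0.15, and 3 had an unadjusted p under 0.05. Over all tested genes, 6106 of 12097 lay above 0 and 5.31% had an unadjusted p under 0.05. Cdt1, a licensing factor of replication origins, was separated in every line (log2 fold change 0.28 ± 0.10, edgeR adjusted p = 0.895).

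Ribosomal protein genes lay above 0 in 30 of 42 members with a median log2 fold change of 0.10, beside 6106 of 12097 tested genes above 0. Their sum was higher in spleen in 5 of 5 pairs, by 0.04, 0.04 and 0.01 in log2 units in the VQ lines and 0.25 and 0.32 in t-VK12653. Oxidative phosphorylation genes lay above 0 in 28 of 35 members with a median of 0.10, and their sum was higher in 5 of 5 pairs, by 0.03 to 0.19. Reads of ribosomal protein genes can be shared with their processed pseudogenes. None of the members of either list was called by edgeR or DESeq2, and edgeR gave 6 ribosomal protein genes and 3 oxidative phosphorylation genes an unadjusted p under 0.05. Over all tested genes, 5.31% had an unadjusted p under 0.05.

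Sterol and fatty acid synthesis genes lay below 0 in 25 of 34 members with a median of -0.12, and their sum was lower in spleen in 3 of 5 pairs. None was called by edgeR or DESeq2, and edgeR gave 1 an unadjusted p under 0.05. Over all tested genes, 5991 of 12097 lay below 0 and 5.31% had an unadjusted p under 0.05. Within the JAK-STAT and interleukin-6 list, Jak2, a kinase downstream of cytokine receptors, averaged 142.8 CPM in spleen and 180.5 CPM in bone marrow. Its log2 fold change was -0.36 ± 0.08 (edgeR adjusted p = 0.319) and the organs were separated in every line. In the same list, Stat3, the transcription factor of interleukin-6 signalling, had 0.27 ± 0.10, and Pim2, a serine kinase that supports plasma cell growth, had 0.54 ± 0.17 (edgeR adjusted p = 0.907 and 0.834). None of these 3 genes was called by edgeR or DESeq2.

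Immediate early and stress genes varied between libraries of one organ. Their sum was 2210 and 2450 CPM in VQ-D1 spleen against 5310 and 2140 in VQ-D1 bone marrow, and 17200 CPM in VQ-D4 spleen against 6420 in VQ-D4 bone marrow. In t-VK12653 it was 3700 and 6610 CPM in spleen against 3440 and 12800 in bone marrow. Of the 23 tested members of the list, 16 moved with the neutrophil sum in VQ-D1 marrow, beside 9.32% of all tested genes. That measure rests on the same 2 libraries, in which the sum of this list itself differs, at 5310 and 2140 CPM. A link of these genes to neutrophil RNA was not tested. Klf4, a zinc finger transcription factor, averaged 19.5 CPM in spleen and 4.45 CPM in bone marrow (log2 fold change 1.73 ± 0.66, edgeR adjusted p = 0.927).

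**Figure D5:**
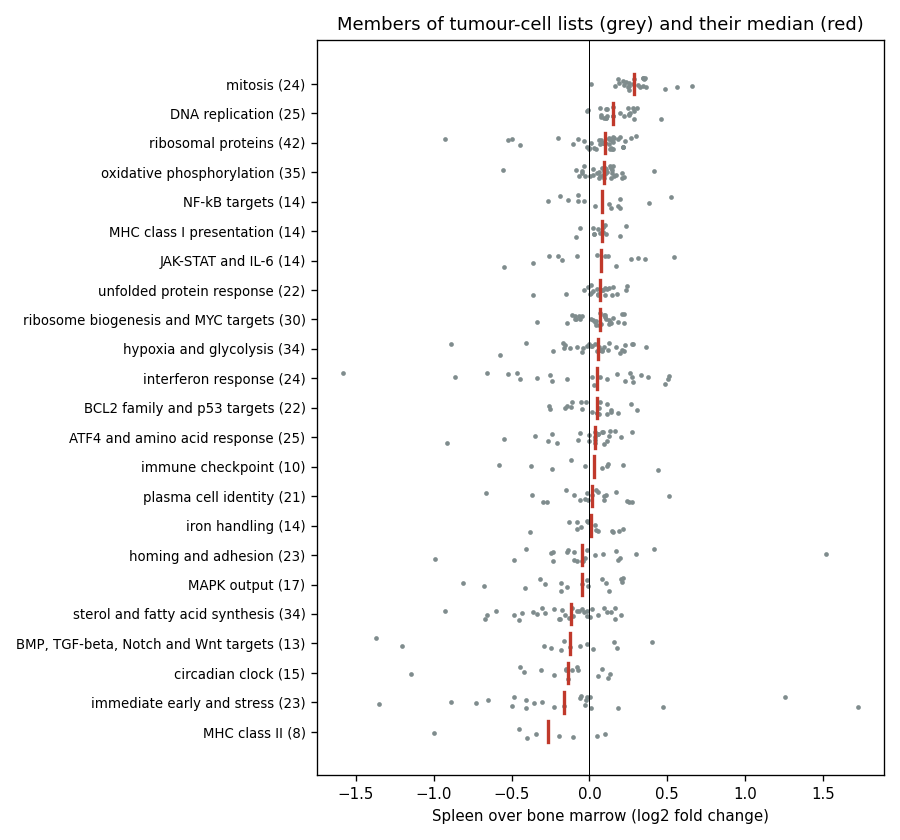
Log2 fold change of spleen over bone marrow for each tested member (grey points) and the median (red bar) of 23 lists of tumour cell pathways, with the number of tested members in brackets. The mitosis median of 0.28 is the highest, and the other medians lie between -0.27 and 0.15.

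Genes of homing and adhesion were examined because the organs differ in their niches. Of 23 tested members, 8 had a fold change above 0 and 15 below, with a median log2 value of -0.05. Neither the main edgeR fit nor DESeq2 called any of them, and the main fit gave 2 an unadjusted p under 0.05, beside 5.31% of all tested genes. Itgb7, the beta 7 integrin that pairs with alpha 4 or alpha E chains to bind mucosal ligands, was at 2.72 and 7.96 CPM in VQ-D1 spleen against 7.66 and 7 in VQ-D1 bone marrow. In VQ-D4, Itgb7 was at 6.35 CPM in spleen against 10.1 in bone marrow, and in t-VK12653 at 25.8 and 14.7 CPM in spleen against 51.9 and 64.1 in bone marrow. Spleen was lower in 4 of 5 pairs (log2 fold change -0.99 ± 0.29, edgeR adjusted p = 0.772, DESeq2 0.231). Without the low-count filter, where edgeR called 168 genes, Itgb7 was called (edgeR adjusted p = 2.95e-05). That fit also called Klf2 of this list, higher in spleen (log2 fold change 1.53, edgeR adjusted p = 0.000147). Cd93, a receptor that long-lived plasma cells need for their persistence in bone marrow, averaged 75.7 CPM in spleen and 55.9 CPM in bone marrow (log2 fold change 0.42 ± 0.19, edgeR adjusted p = 0.933).

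A test of whether the spleen effect differed between lines called 1 of 12730 genes (0.00786%), Lars2, the mitochondrial leucyl-tRNA synthetase (edgeR interaction adjusted p = 0.0306). Lars2 was at 631 and 725 CPM in VQ-D1 spleen against 502 and 541 in VQ-D1 bone marrow. In VQ-D4 it was at 339 CPM in spleen against 1030 in bone marrow, and in t-VK12653 at 1470 and 1450 CPM in spleen against 535 and 741 in bone marrow. The share of counts taken by Rn45s was 20.6% and 21.7% in VQ-D1 spleen against 19.8% and 20.7% in VQ-D1 bone marrow. It was 18.6% in VQ-D4 spleen against 19.4% in VQ-D4 bone marrow, and 25.2% and 27.3% in t-VK12653 spleen against 21.2% and 23.3% in t-VK12653 bone marrow. Lars2 and the Rn45s share thus differed in the same direction in all 5 pairs, and the part of the ribosomal RNA share in the Lars2 result was not tested. The call was lost without any of the VQ-D1 libraries and without either t-VK12653 spleen library. With the recipient nested in line as a block, a fit with few residual degrees of freedom, 211 genes were called.

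Granulocyte genes also led the comparison of another line and organ. In VQ-D5, of VQ genotype, 2 lymph node libraries were compared with 2 bone marrow libraries, and edgeR called 2 of 10892 genes (0.0184%). Both are granulocyte genes of the lists. Ngp had a log2 fold change of -7.96 ± 0.61 (edgeR adjusted p = 0.00775) and Mpo one of -6.34 ± 0.37 (edgeR adjusted p = 0.00173), lymph node over bone marrow. Of the 8 tested neutrophil genes, all 8 were below 0 with a median of -5.33. Of the 10490 genes tested in both comparisons, 5182 were below 0, with a median of 0.003. The direction of the neutrophil genes is partly set by the filter on low counts. Genes such as S100a8, at 0.119 to 0.134 CPM in VQ-D5 lymph node and 2.7 to 7.06 CPM in VQ-D5 bone marrow, passed it through bone marrow. The median of the 24 mitosis genes was -0.04. With the recipient number as a block, which leaves few residual degrees of freedom, edgeR called 111 genes, 46 higher and 65 lower in lymph node. These libraries share no sample with the spleen comparison.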

How the data were processed

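Per the labels' protocols, total RNA was isolated with a micro-scale kit and turned into stranded libraries from picogram amounts. The submitters' processing notes name STAR, featureCounts and DESeq2 as tools and list both GRCm38 and mm10. Their versions, and whether strand was used in counting, were not given in the sources used here. Every deposited table lists 24063 gene symbols with their count and their TPM, per the file headers. The raw count, a whole number per gene from the authors' counting, is what all tests used. TPM, the authors' length-scaled value in the deposited tables, served only to compare levels between genes.

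The 10 spleen and bone marrow libraries were fitted in R 4.3.3 with edgeR 4.0.16 (robust quasi-likelihood F-test, TMM scaling, filterByExpr with count minimum 10 and total minimum 15, terms for line and tissue) and Benjamini-Hochberg adjustment. DESeq2 1.42.0, the recipient number as a block, other scalings and filters, and fits without a line, recipient or library were alternatives. Deviations of the libraries of one recipient number from their group means correlated at 0.0861 in VQ-D1 and 0.281 in t-VK12653 over 12097 genes, and at 0.153 and 0.46 over the 8455 genes of at least 10 CPM. The number in the table names was taken as that of the recipient mouse, which no label states, and blocked values stand beside results that they change. The median log2 fold change over all genes was 0.00206.

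There were 13 lists of markers of other cell types and 23 of tumour cell pathways. List sums are sums of CPM. The members and lists were chosen with earlier results of these data known. The rule for named genes took, in each direction, the 12 genes of most extreme fold change that were called, separated in every line and at 10 CPM or more, in all and again among genes on no marker list that did not move with the neutrophil sum. It also took called list members, genes with a called interaction, list members for their level, and Nras and Myc. As it named no gene by a call in the main fit, other genes were chosen after their values were seen. No predicted gene or gene used to tell the sexes apart was named, and Rmrp was the only small RNA named, as a DESeq2 call. Gene positions are from RefSeq on GRCm38.p6. For a count of 0, a limit of 3 counts was used, equal to 0.405 to 0.952 CPM per spleen library and 0.28 to 0.977 CPM per bone marrow library. Such limits and the counting intervals hold counting error alone, as PCR copies were not marked by molecular identifiers.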

Additional observations from a re-analysis of the deposited data

Results flagged for a closer look

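Within a side of 5 libraries, 5 of 26 sums of marker lists had a library far from the other 4. The rule flags about 1 in 20 where the 5 values are independent and normally distributed. That rate does not apply here, as the sums are skewed and come from 3 donor lines. Some flags also share a library or a recipient number. The neutrophil sum of 173 CPM in the second VQ-D1 spleen library stood apart from 7.1 to 27.1 CPM in the other 4 spleen libraries. In bone marrow, the first VQ-D1 library stood apart with a neutrophil sum of 1140 CPM and a granulocyte precursor sum of 178 CPM. The mast cell, basophil and eosinophil sum stood apart at 358 CPM in the second t-VK12653 spleen library and at 345 CPM in the second t-VK12653 bone marrow library. These have the same recipient number, and Prg3, an eosinophil granule protein, made up 88.3% of the sum over the 10 libraries.

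Among 29 named genes, 2 had a pair far from the other 4 in the spleen over bone marrow difference. In the second VQ-D1 pair, S100a8 differed by -1.34 and S100a9 by -1.03 in log2 CPM. The first VQ-D1 pair differed by -5.79 in S100a8 and -5.47 in S100a9. In VQ-D4 and t-VK12653, spleen libraries held 0, 1 and 0 reads of S100a8 and 1, 7 and 2 reads of S100a9, so the size of those 3 differences, and with it the distance of the second VQ-D1 pair, depends on the offset of 0.5 counts.

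The spleen effect of Lars2 differed between lines by the interaction test (edgeR adjusted p = 0.0306), with pair differences of 0.33 and 0.42 in VQ-D1, -1.61 in VQ-D4 and 1.46 and 0.96 in t-VK12653 on the log2 scale.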

How the results depend on the processing

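The count of genes called between spleen and bone marrow, 0 in the main fit, was also 0 under RLE scaling, when abundant non-coding RNA was dropped, without marker list genes, with the neutrophil sum as a covariate, in a non-robust fit and without t-VK12653. It was 33 with DESeq2, 168 without the low-count filter (6 of them not tested with it), 9 over all 20 tumour libraries, 3 without VQ-D1, and 1 without VQ-D4. With the recipient as a block it was 5, in the block with the neutrophil covariate 0, and in the block without a recipient 1 or 23 (first or second of VQ-D1), 9 (VQ-D4) and 4 or 3 (first or second of t-VK12653). Without single libraries it was 0 to 7. The count without the second VQ-D1 bone marrow library was 7, without the second VQ-D1 spleen library 4, and 1 without the VQ-D4 bone marrow library, the VQ-D4 spleen library or the first t-VK12653 spleen library. The cause was not tested. The interaction count of 1 was 215 without the filter, 14 with DESeq2's likelihood ratio test, 211 with the recipient block, and 0 to 1 without single libraries. The VQ-D5 count of 2 was 82 without the filter, 111 with the block and 4 to 20 without single libraries, where a lone library is assumed to vary like the others. The neutrophil difference of -3.51 stayed between -3.06 and -3.95.

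Of 682 alternative values for 25 genes, 580 kept direction and call, 78 gained a call and 24 reversed. With the neutrophil covariate the log2 fold changes of S100a9, Ngp, Mpo, Elane, Lyz2, Satb1 and Cdca2 were 0.0547, 0.162, 0.862, 0.948, 0.179, 0.0548 and -0.163. In the block with that covariate they were 0.0677, 0.294, 0.448, 0.738, 0.211, 0.0792 and -0.0879, and Kif2c was at -0.0623. The covariate is the neutrophil list's sum, which contains S100a9 and Ngp and did not overlap between the organs within any line. A shift towards 0 was therefore largely built in for S100a9 and Ngp. For the other genes these fits cannot separate the organ from neutrophil RNA. Lars2 was at -0.259 without t-VK12653. Myc was at -0.0172 without VQ-D4, at -0.01002 in the block without that recipient, and from -0.0179 to 0.169 without single libraries. Nras was at -0.0259 over 20 libraries, -0.122 without VQ-D1, -0.0437 in the block without the second VQ-D1 recipient, and from -0.0279 to 0.106 without single libraries. Of 1094 values for 40 other genes, 35 reversed. Depth limits the genes under 10 CPM most. With RLE scaling, 1136 genes, against 1128, moved with the neutrophil sum in VQ-D1 marrow.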

Other observations

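Ptprc, which encodes the B220 isoform among others, was listed at 0.49 TPM in VQ-D4 spleen and 0.311 TPM in VQ-D4 bone marrow. In the other lines it lay at 49.5 to 89.9 TPM in spleen and 47.2 to 91.2 TPM in bone marrow. Its log2 fold change between the organs was 0.07 ± 0.09 (SE, edgeR adjusted p = 0.973).

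C3, the central complement component, was at 5.77 and 9.72 CPM in VQ-D1 spleen against 47.4 and 35.7 CPM in VQ-D1 bone marrow, and at 1.82 and 1.32 CPM in t-VK12653 spleen against 5.58 and 3.58 CPM in t-VK12653 bone marrow. In VQ-D4 it was at 82.5 CPM in spleen against 46.7 CPM in bone marrow. Without VQ-D4, C3 was the only gene called by edgeR (log2 fold change -2.19, adjusted p = 0.0221), and the difference between lines was not called (interaction adjusted p = 0.193). C3 was chosen after its values were seen.

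Eef1a2, a translation elongation factor isoform of muscle and nerve, was at 12.2 and 59.5 CPM in t-VK12653 spleen against 2.27 and 11.4 CPM in t-VK12653 bone marrow. It stayed at or below 2.16 CPM in the spleen and at or below 0.841 CPM in the bone marrow of the VQ lines. With the recipient block and without VQ-D4 it was 1 of 2 genes called higher in spleen (log2 fold change 2.04, adjusted p = 0.0181). Over all 3 lines its log2 fold change was 1.89 ± 0.82 (SE), with an edgeR adjusted p of 0.933. Eef1a2 was chosen after its values were seen.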
